A study of Mus musculus with 3 samples.

Results

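The 10 genes described here encode Toll-like receptors of the mouse and 2 co-receptors of TLR4: Tlr1, Tlr2, Tlr4 and Tlr6, Tlr3, Tlr7, Tlr9 and Tlr13, and Cd14 and Ly96. Tlr5, Tlr8, Tlr11 and Tlr12 are not among them. They were chosen by symbol in the deposited transcript tables and joined by gene identifier to the gene tables, where all 10 were found among 55450 genes. Toll-like receptors are sensors of microbial molecules whose leucine-rich repeats bind a ligand outside the cytosol and whose cytosolic domain recruits the adaptors MyD88 or TRIF. TLR1, TLR2, TLR4 and TLR6 act at the cell surface on bacterial lipids and lipoproteins, whereas TLR3, TLR7, TLR9 and TLR13 act in endosomes on nucleic acids. CD14 hands lipopolysaccharide to a complex of TLR4 and MD-2, the product of Ly96, and TLR2 works as a dimer with TLR1 or TLR6.

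The samples were macrophages of the mouse strain C57BL/6J derived from bone marrow and treated with 100 ng/ml Lipid A, the TLR4-activating part of lipopolysaccharide, for 60 min. RNA bound to chromatin, which is rich in nascent and incompletely processed transcripts, was depleted of ribosomal RNA and sequenced in 3 libraries labelled biological replicates 1, 2 and 3, from 1 µg, 250 ng and 500 ng of RNA. All 3 belong to this 1 group, carry the same donor entry and have no recorded sex or age. Untreated cells were not analysed here, so every value is a level after treatment, and each p-value measures only the spread between libraries, which may be technical. In such bulk samples, fewer cells of a type and less RNA per cell cannot be told apart.

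Each library was quantified in 2 ways. A gene table and a transcript table give expected counts, and another transcript table gives estimated counts, summed here per gene. Both carry TPM (transcripts scaled to a fixed total per library), a level per transcript length. Expected counts of named genes were 13312747, 15346116 and 15806028 in replicates 1, 2 and 3, and estimated counts were 21055097, 27428699 and 27362420. Nuclear coding genes held 18.9% to 23.9% of gene-table TPM, least in replicate 1, and 35.5% to 39.7% of the estimated-count TPM. All 6 macrophage markers (Adgre1, Csf1r, Cd68, Mertk, Itgam and Cd14 itself) stood at a TPM of at least 1 in every library. The summed TPM of 5 plasmacytoid dendritic markers was 1.31 to 2.34, that of 4 conventional dendritic markers 0.64 to 1.42, that of 5 B cell markers 0.03 to 0.06 and that of 6 neutrophil markers 0.02 to 0.24, and all 4 T cell markers were listed at 0. The plasmacytoid value was nearly all Ccr9, with Klk1 listed at 0. In the estimated-count tables the T cell gene Cd3d had a mean TPM of 25.01 and the B cell gene Ms4a1 one of 3.05.

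By gene-table TPM, the RNA of Cd14, Tlr2 and Tlr1 was abundant on chromatin, and that of Tlr4 and Tlr6 stood below the middle of detected coding genes. In the estimated-count tables Tlr4 stood above it. In the gene table, 8 of 10 genes had 1 TPM or more in each library, against 35.8% of 21938 nuclear coding genes. Tlr3 and Tlr9 did not. The same 8 genes did so in the estimated-count tables, against 50% of the coding genes. The median log2(TPM + 1) of the 10 genes was 3.64 ± 0.30 (SD, n = 3 libraries), beside 3.18 ± 0.20 for the 7856 coding genes detected in this way and 0.30 ± 0.07 for all coding genes. Together the 10 genes held 0.0743% ± 0.00283 of gene counts.

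**Figure D1:**
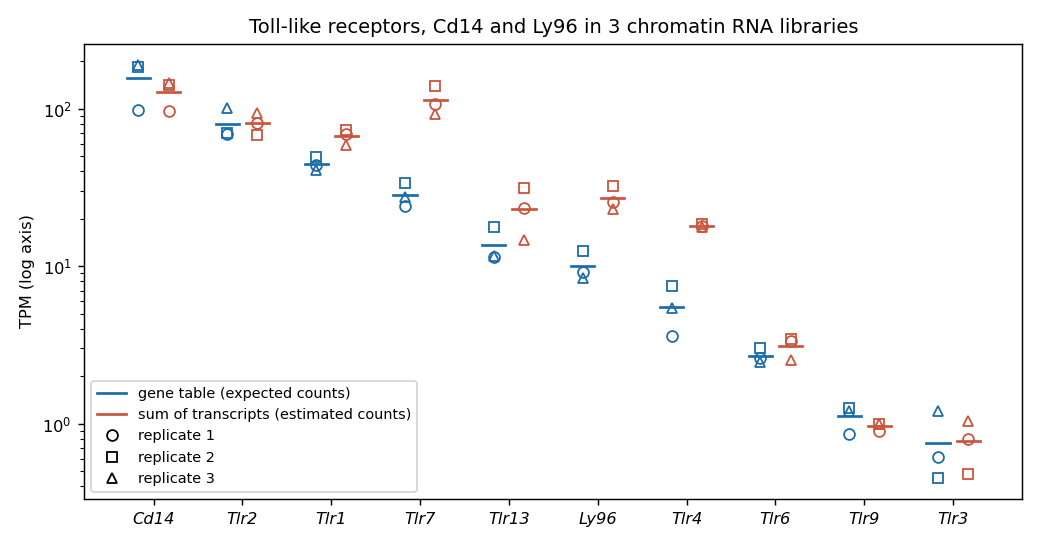
TPM of each of the 10 genes (log axis) in replicates 1 to 3, from the gene table (blue) and summed from the estimated-count transcript table (red). Horizontal lines are means of 3 libraries. Cd14 is the highest and Tlr3 the lowest by mean in each table, and Tlr7, Ly96 and Tlr4 show the largest gaps between the tables.

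Tlr2, the shared partner of the lipoprotein-sensing dimers, was the highest of the surface receptors. Its gene-table TPM was 69.3, 70.5 and 101 in replicates 1, 2 and 3, on 3579, 3318 and 4792 expected counts. By this TPM, replicate 3 stood apart from the other libraries. Its difference from replicate 2 of 0.51 in log2(TPM + 1) exceeded that of 95.6% of detected coding genes. With TPM rescaled over nuclear coding genes, Tlr2 stood at 366.5, 295.8 and 449.8 in replicates 1, 2 and 3. Scaled to the library total of counts (CPM), it stood at 268.8, 216.2 and 303.2. On both of these scales replicate 2 was the lowest and replicate 1 lay between the others. Tlr2 has 1 annotated transcript, Tlr2-201, whose coding sequence lies in 1 exon (mm10, chr3:83836272-83841767, minus strand). The estimated-count tables gave nearly the same TPM, 81.3, 67.8 and 93.8, also lowest in replicate 2.

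Tlr1 and Tlr6 encode the alternative partners of TLR2, for triacylated and diacylated lipoproteins. The genes are paralogs on the minus strand of chromosome 5, Tlr1 at chr5:64924679-64933563 and Tlr6 at chr5:64952031-64960097, 18467 bases apart in mm10, and the coding sequence of each lies in 1 exon. Tlr1 had a gene-table TPM of 44.2, 49.4 and 40.7 in replicates 1, 2 and 3, and Tlr6 one of 2.61, 3.01 and 2.45. The ratio of Tlr1 to Tlr6 was 16.9, 16.4 and 16.6 in the gene table and 20.6, 21.3 and 23.4 in the estimated-count tables. These near-equal ratios depended on a short isoform of Tlr6, Tlr6-202 (446 bases), which had 1.10, 0 and 0.93 TPM on 4.91, 0 and 3.29 expected counts. Keeping only transcripts of at least 500 bases, a choice made after seeing the data, left out Tlr6-202 and also Tlr1-203 (419 bases). The expected-count ratio of TPM was then 19.1, 11.1 and 18.7. By expected counts over all transcripts the ratio was 14.4, 8.65 and 14.1. Every library had more Tlr1 than Tlr6, with no overlap between the genes.

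The coding sequences of Tlr1 and Tlr6 share 9 identical runs of 31 bases or more, which cover 36.6% of 2385 coding bases of Tlr1 and 36.1% of 2418 of Tlr6. The longest is 229 bases. It is shown with its surroundings because reads inside it cannot be assigned to either gene by sequence. The windows are 289 bases of coding exon on the minus strand of mm10, chr5:64925507-64925795 in Tlr1 and chr5:64953798-64954086 in Tlr6, 5′ to 3′, with the 2 differing bases in capitals (C30T and G260A, the Tlr1 base first, counted from the 5′ end of the window).
Tlr1: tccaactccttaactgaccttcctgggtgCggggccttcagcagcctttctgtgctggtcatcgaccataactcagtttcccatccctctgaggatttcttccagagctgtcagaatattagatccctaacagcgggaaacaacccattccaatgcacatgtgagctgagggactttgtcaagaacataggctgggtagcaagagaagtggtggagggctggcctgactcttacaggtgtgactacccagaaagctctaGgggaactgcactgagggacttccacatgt
Tlr6: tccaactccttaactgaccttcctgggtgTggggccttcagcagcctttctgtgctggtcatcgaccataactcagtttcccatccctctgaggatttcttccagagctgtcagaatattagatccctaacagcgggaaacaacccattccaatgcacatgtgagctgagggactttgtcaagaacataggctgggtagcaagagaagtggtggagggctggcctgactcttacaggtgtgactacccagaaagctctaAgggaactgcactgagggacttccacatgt

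Of the 31-base words in the annotated transcripts of each gene, 20.0% in Tlr1 and 16.6% in Tlr6 also occurred in other genes, mostly in each other. The gene table gives a posterior SD of the count, the uncertainty left by shared reads, and it was above 0 only in Tlr1 and Tlr6 among the 10 genes. It was 1.13, 1.56 and 1.07 counts in replicates 1, 2 and 3, the same in both genes, on 1459, 1518 and 1309 expected counts of Tlr1 and 101, 176 and 93.2 of Tlr6. Of detected coding genes, 67.1% had a posterior SD of 0 in all libraries. Whether reads were moved between Tlr1 and Tlr6 in a way these values do not show was not tested, so their levels are uncertain.

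Tlr4, the receptor of Lipid A, was low in the gene table, with a TPM of 3.61, 7.51 and 5.45 in replicates 1, 2 and 3 on 255, 488 and 358 expected counts. The gene spans 102701 bases (mm10, chr4:66827584-66930284, plus strand), and 38.7% of detected coding genes were lower. The difference of 0.88 in log2(TPM + 1) between replicates 2 and 1 exceeded that of 93.3% of detected coding genes. In the estimated-count tables Tlr4 stood at 17.9, 18.6 and 17.8, above 67.2% of detected coding genes, with nearly equal libraries.

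Of the co-receptors, Cd14 had the highest mean TPM of the 10 genes and Ly96 stood between Tlr13 and Tlr4. Cd14 had a gene-table TPM of 97.5, 185 and 190.4 in replicates 1, 2 and 3, on 1785, 3034 and 3190 expected counts, above 97.0% of detected coding genes. The gene is compact, with 2 exons in 1732 bases (mm10, chr18:36725067-36726798, minus strand). Replicate 1, made from the largest amount of RNA, was the low library. Ly96 (chr1:16688051-16709611, plus strand), with 5 short exons, had 9.13, 12.5 and 8.45 TPM on 75, 85 and 59 expected counts, so its values rest on few reads.

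By TPM over annotated transcripts, the RNA of the lipopolysaccharide co-receptor Cd14 was far above that of the receptor in each library. Exons of Cd14-201 cover 94.75% of the span of its gene and those of Tlr4-201 3.97%. RNA from the remaining bases was not compared. The coding isoform Cd14-201 alone, at 41.9, 83.2 and 86.9 TPM from expected counts in replicates 1, 2 and 3, was also above Tlr4. The difference of Cd14 from Tlr4 was 4.59 ± 0.26 in log2(TPM + 1) (SD, n = 3), positive in 3 of 3 libraries (p = 0.25, exact two-sided sign-flip permutation test, the smallest p that 3 libraries allow). As a ratio of TPM it was 28.9 ± 5.39 in the gene table and 7.06 ± 1.45 in the estimated-count tables, where the log2 difference was 2.73 ± 0.31. Ly96 exceeded Tlr4 by 0.78 ± 0.31, also in 3 of 3 libraries (p = 0.25, the same exact test), but by counts per library total (CPM), which are not divided by length, the difference was -2.08 and negative in all 3. The coding isoform Ly96-201 alone, at 3.93, 4.80 and 4.08 TPM, was below Tlr4 in replicates 2 and 3. The gene's ratio to Tlr4 was 2.53, 1.66 and 1.55 in replicates 1, 2 and 3.

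Tlr7, a sensor of single-stranded RNA, was the highest of the endosomal receptors, with a gene-table TPM of 24.3, 33.7 and 27.4 in replicates 1, 2 and 3. Tlr13, which recognises bacterial ribosomal RNA, followed with 11.4, 17.7 and 11.7. Both lie on chromosome X, Tlr7 at chrX:167304929-167330558 on the minus strand and Tlr13 at chrX:106143204-106160493 on the plus strand of mm10. Replicate 2 was the high library for each.

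Tlr9 (chr9:106222598-106226883, plus strand), the sensor of unmethylated CpG DNA, had a TPM of 0.86, 1.26 and 1.21 on 52, 69 and 67 expected counts. Tlr3 (chr8:45395665-45411080, minus strand), the sensor of double-stranded RNA, had 0.61, 0.45 and 1.21 on 28, 30 and 47. The 2 genes overlapped, with equal values in replicate 3. Tlr3 also overlaps the antisense gene Gm45542 by 698 bases and shares 6.10% of its 31-base words with it. The sources used here do not give the strand of counting, so the level of Tlr3 is uncertain. The interval that the gene table gives for its TPM also lay above the listed value in each library. It was 0.8187 to 2.838, 0.7985 to 3.325 and 1.234 to 4.002 in replicates 1, 2 and 3, reaching above the TPM of Tlr9. Such a mismatch was not particular to Tlr3. The listed TPM of Tlr2 and Cd14 lay above the upper bound in each library (67.57, 68.06 and 96.91 for Tlr2, 96.87, 179.5 and 184.9 for Cd14). The remaining genes of the 10 lay within their intervals.

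Among the 10 genes, the median level of the 4 surface receptors was above that of the 4 endosomal receptors in each library. The median log2(TPM + 1) was 4.09 ± 0.26 for Tlr1, Tlr2, Tlr4 and Tlr6 and 2.46 ± 0.22 for Tlr3, Tlr7, Tlr9 and Tlr13, a difference of 1.63 ± 0.04 that was positive in 3 of 3 libraries (p = 0.25, exact two-sided sign-flip permutation test). The classes overlapped, since Tlr4 and Tlr6 lay below Tlr7 and Tlr13 in every library. Tlr5, Tlr8, Tlr11 and Tlr12 were in neither class. Tlr8, an endosomal sensor, had 6.12, 9.24 and 8.55 TPM in replicates 1, 2 and 3, above Tlr4 in each. The sign of the difference depends on the genes in each class. With Tlr5 counted as surface and Tlr8 as endosomal, the medians would be those of Tlr4 and Tlr8, and the endosomal one would be higher. With Tlr11 and Tlr12, both listed at 0, also counted as endosomal, the medians would be those of Tlr4 and Tlr9, and the surface one would be higher. Summed TPM was 133 ± 15.1 for the surface class and 43.9 ± 8.22 for the endosomal class. In the estimated-count tables the sums were 169 ± 5.26 and 138 ± 32.0, and endosomal exceeded surface receptors in replicate 2 (172 against 163), while the difference of medians was 2.40 ± 0.19.

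In order of mean TPM the gene table gave Cd14, Tlr2, Tlr1, Tlr7, Tlr13, Ly96, Tlr4, Tlr6, Tlr9 and Tlr3. The same values set this order and gave the differences that follow. A positive mean difference was thus largely built in, and the p-values are no support for the order. Of the 9 neighbouring pairs in this order, 8 had the same direction in all 3 libraries and a mean difference above its SD (p = 0.25 each by the exact sign-flip permutation test, 0.281 after Benjamini-Hochberg adjustment over 9 pairs). Tlr9 and Tlr3 did not differ beyond their spread, with 0.28 ± 0.33 (p = 0.5, exact permutation test). By CPM, which is not divided by length, the order was Tlr2, Cd14, Tlr7, Tlr1, Tlr13, Tlr4, Tlr6, Ly96, Tlr9 and Tlr3. The estimated-count tables placed Tlr7 directly after Cd14 and Ly96 above Tlr13, and 5 of the 9 pairs kept their direction in all 3 libraries.

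In plain TPM, the ratio between the 2 quantifications was largest for Tlr7, Tlr4 and Ly96. The estimated-count TPM was above the gene-table TPM for most coding genes, with median log2 ratios of 0.89, 0.77 and 0.68 in replicates 1, 2 and 3, so differences were taken relative to these medians and tested with limma over 10807 nuclear coding genes. By an adjusted p under 0.05, 37% of these genes were relatively higher in the estimated-count tables and 34.8% lower, 71.8% in all. Of the 10 genes 9 passed the filter of a mean TPM of 1, Tlr3 being left out, and 3 were higher and 5 lower. Whether these shares depart from those of all genes tested was not tested.

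Tlr7 had an estimated-count TPM of 107, 139 and 92.1 against a gene-table TPM of 24.3, 33.7 and 27.4. Its relative log2 difference was 1.18 ± 0.06 (SE; limma, adjusted p = 7.4e-05), but -0.44 when counts replaced TPM and -0.71 when only transcripts of at least 500 bases were summed. Tlr4 was relatively higher by 0.90 ± 0.15 (limma, adjusted p = 0.0038) and Ly96, at 25.7, 32.1 and 23.2 estimated-count TPM, by 0.61 ± 0.06 (limma, adjusted p = 0.00067), and these directions held under every alternative run. In reads, Tlr4 had 2.61 ± 0.41 and Ly96 3.75 ± 0.60 estimated counts for each expected count, above the ratio of all genes in each library (1.58, 1.79 and 1.73 in replicates 1, 2 and 3). The other 8 genes were below that ratio in every library.

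Cd14 was relatively lower in the estimated-count tables by 1.04 on the log2 scale (limma, adjusted p = 0.00011), at 97.1, 141 and 145.9 TPM. Tlr9 differed by -0.91 (limma, adjusted p = 0.0012), and Tlr2 by -0.76 (limma, adjusted p = 0.00016). Tlr6 differed by -0.61 (limma, adjusted p = 0.0026). Without centring on the median, Tlr2 and Tlr6 changed sign to 0.02 and 0.17, and neither these nor Tlr9 at -0.13 were called. Tlr1 differed by -0.20 (limma, adjusted p = 0.013), which turned to 0.58 without centring and missed the threshold without replicate 3, with no filter and with a mean TPM of at least 5 (limma, adjusted p = 0.057, 0.86 and 0.071). Tlr13 was not called (-0.07, limma, adjusted p = 0.56), but it was called lower as a ratio of counts (-0.56, limma, adjusted p = 0.00089) and higher without centring (0.71, limma, adjusted p = 6.7e-08).

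**Figure D2:**
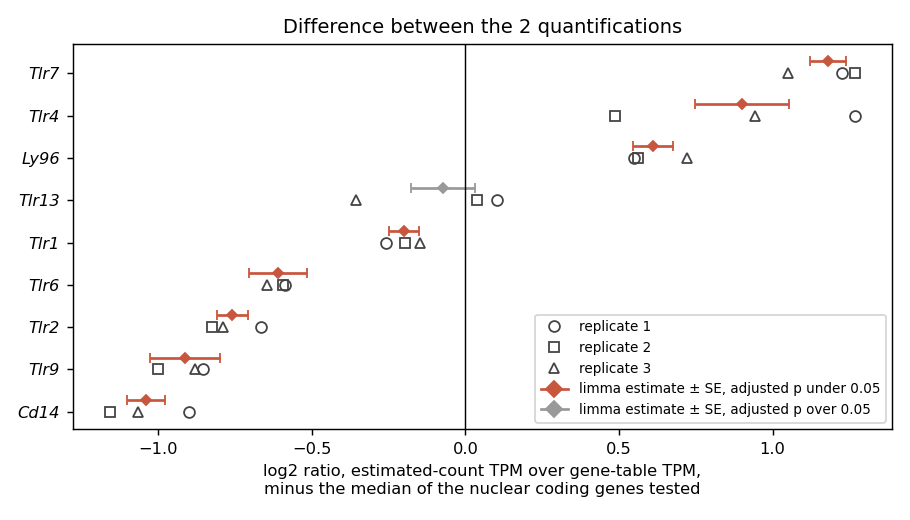
Log2 ratio of estimated-count TPM to gene-table TPM for the 9 genes tested, minus the median over nuclear coding genes in the same library. Open symbols are libraries and diamonds with bars are limma estimates ± SE. Tlr7, Tlr4 and Ly96 lie to the right of 0 in every library and Cd14, Tlr9, Tlr2, Tlr6 and Tlr1 to the left.

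For Tlr7 the higher level came from short annotated isoforms. Tlr7-206, a processed transcript of 261 bases, had 49.8, 66.2 and 46.9 estimated-count TPM in replicates 1, 2 and 3 from 97.9, 157 and 111 estimated counts. Tlr7-204, an isoform of 384 bases annotated as coding, had 25.4, 29.6 and 15.9. Both were listed at 0 in the expected-count transcript table of every library, where the coding isoform Tlr7-201 had 18.2, 24.0 and 21.3. Over transcripts of at least 500 bases, a choice made after seeing the data, the tables gave Tlr7 similar levels, 27.3 ± 4.17 TPM from expected and 25.6 ± 2.66 from estimated counts.

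For Tlr4 and Ly96 the isoforms in question were longer. Tlr4-202 is a coding isoform of 1866 bases whose first wholly coding unshared exon stretch begins 81566 bases beyond the end of Tlr4-201. It had 9.26, 6.40 and 9.39 estimated-count TPM in replicates 1, 2 and 3 but 0.04, 0.04 and 0 TPM in the expected-count table. The main isoform Tlr4-201 was close in the 2 tables, with 5.45, 8.11 and 5.83 against 3.57, 7.47 and 5.45. Ly96-201, the coding isoform of MD-2, had 15.0, 18.2 and 14.5 estimated-count TPM against 3.93, 4.80 and 4.08, and over transcripts of at least 500 bases Ly96 still stood at 26.6 ± 4.55 against 10.02 ± 2.15.

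The exon stretches below come from Tlr7-206, Tlr4-202 and the retained-intron isoform Ly96-203 and are in no other annotated isoform of the same gene. Reads inside such stretches set these isoforms apart from the other annotated isoforms only. Incompletely processed RNA that spans the same bases could give such reads too, and this was not tested. A single stretch is shown per isoform, the first wholly coding one of Tlr4-202 and the longest of the others. Further such stretches may exist. Capitals mark the stretch, and the 20 lower-case bases before it belong to the transcript upstream. In mm10 they lie at chrX:167317680-167317798 on the minus strand (119 bases, non-coding exon), chr4:66924366-66924488 on the plus strand (123 bases, coding exon) and chr1:16691774-16691947 on the plus strand (174 bases, retained intron).
Tlr7-206: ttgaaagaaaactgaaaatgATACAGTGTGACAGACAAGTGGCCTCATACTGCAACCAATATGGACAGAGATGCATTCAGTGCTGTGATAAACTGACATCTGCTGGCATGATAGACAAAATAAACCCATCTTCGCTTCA
Tlr4-202: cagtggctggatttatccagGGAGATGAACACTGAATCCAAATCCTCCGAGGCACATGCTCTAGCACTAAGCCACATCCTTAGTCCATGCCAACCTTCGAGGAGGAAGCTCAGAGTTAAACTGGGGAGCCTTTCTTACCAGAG
Ly96-203: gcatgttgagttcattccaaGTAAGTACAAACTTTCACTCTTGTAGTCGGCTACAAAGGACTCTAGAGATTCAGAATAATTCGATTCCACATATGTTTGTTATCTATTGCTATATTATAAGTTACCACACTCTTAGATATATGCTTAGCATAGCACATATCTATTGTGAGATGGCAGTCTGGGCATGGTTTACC
None of the 31-base words in these 3 stretches occurred in a transcript of another gene, on either strand. The sequences are from GENCODE M21 transcripts.

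**Figure D3:**
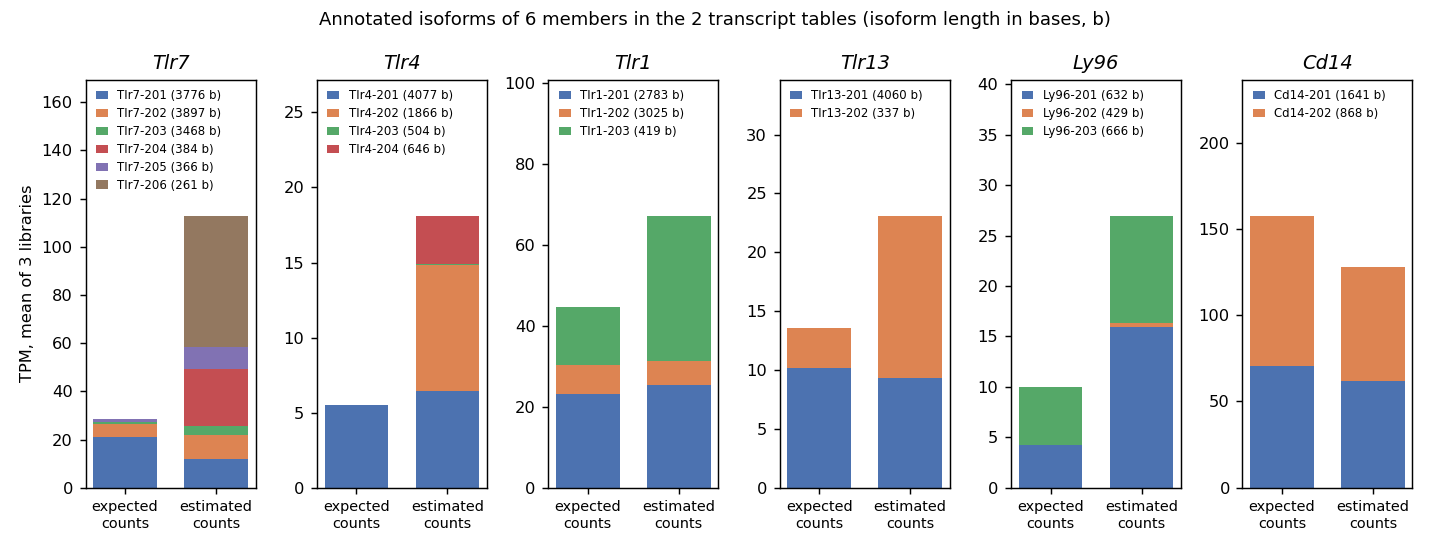
Mean TPM over 3 libraries of each annotated isoform of 6 genes, stacked from 0, in the expected-count and the estimated-count transcript tables. Each panel has its own axis. Tlr7-206 and Tlr7-204 and Tlr4-202 and Tlr4-204 fill most of the added height in the estimated-count bars, while Cd14 is split between the same 2 isoforms in each.

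Short isoforms also carried much of the TPM of Tlr1, Tlr13 and, in replicates 1 and 3, Tlr6. Over transcripts of at least 500 bases Tlr6 had 1.51, 3.01 and 1.53 TPM from expected counts, so that replicate 2 stood apart. Tlr1-203, a processed transcript of 419 bases, had 15.4, 16.0 and 12.1 TPM in the expected-count table and 33.4, 41.8 and 32.4 in the estimated-count table. Over transcripts of at least 500 bases, Tlr1 stood at 30.3 ± 2.74 and 31.4 ± 4.38 TPM, and Tlr13 at 10.2 ± 2.66 and 9.35 ± 1.95. The levels of Tlr1, Tlr7 and Tlr13 thus differed between tables by less than the spread between libraries once the short isoforms were left out. Against the shift of all coding genes, Tlr1, Tlr7 and Tlr13 then differed by -0.58, -0.71 and -0.73 (limma, adjusted p = 0.00036, 0.00011 and 0.0002).

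Isoforms that keep an intron are annotated for Cd14, Ly96 and Tlr13, and their summed TPM was set against that of the gene's coding isoforms as a log2 ratio, in limma over 5597 genes. Of these genes, 35.5% had relatively more retained-intron RNA and 31.9% less, 67.4% in all, in the expected-count table. Cd14-202, the retained-intron form of Cd14, had 55.6, 102 and 103.6 TPM and the coding Cd14-201 41.9, 83.2 and 86.9 in replicates 1, 2 and 3. Their shares were steady, with 55.5% ± 1.36 (SD, n = 3) of the gene's TPM in the retained-intron form, and the log2 ratio of 0.32 ± 0.13 (SE) missed the threshold (limma, adjusted p = 0.058) except without replicate 2 (limma, adjusted p = 0.045).

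Tlr13 had less retained-intron than coding RNA in the expected-count table, with a log2 ratio of -1.48 ± 0.20 (SE; limma, adjusted p = 0.00028). Its retained-intron isoform Tlr13-202 is 337 bases long and held 9, 8 and 4 expected counts. In the estimated-count table the ratio was 0.43, of opposite sign and not called (limma, adjusted p = 0.090). Ly96-203 had 5.20, 7.67 and 4.37 TPM in the expected-count table, a log2 ratio to the coding isoforms of 0.36 ± 0.19 that was not called (limma, adjusted p = 0.13). In the estimated-count table, where 46.7% of 6842 genes were called higher and 32.4% lower, 79.1% in all, the Ly96 ratio was -0.61 (limma, adjusted p = 0.0043). The direction for Tlr13 and Ly96 therefore depended on the table.

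By the spread fitted over libraries, these genes lay near other genes. The fit draws the value of each gene toward the trend of all genes, so with 3 libraries such closeness is partly built in. Some differences between single libraries, given elsewhere for Tlr2, Tlr4 and Cd14, exceeded those of most detected coding genes. The biological coefficient of variation, the spread between libraries beyond counting noise fitted by edgeR, was 0.181 over 12451 genes. It ran from 0.149 for Tlr7 to 0.213 for Tlr6 and 0.223 for Tlr3, beside a median of 0.171 over coding genes, and Cd14 and Tlr2 were at 0.185 and 0.187. Without replicate 2 the values of all 10 genes and the common value fell, the latter to 0.125 and that of Tlr2 to 0.118.

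Of the 10 genes 7 had their highest gene-table TPM in replicate 2 and Cd14, Tlr2 and Tlr3 in replicate 3. Of detected coding genes 61.6% were highest in replicate 2, 33.1% in replicate 3 and 5.3% in replicate 1, and 75.9% were lowest in replicate 1, as 6 of the 10 genes were. Cd14 was higher by 0.92 and 0.96 in log2(TPM + 1) in replicates 2 and 3 than in replicate 1, more than 94.2% and 98.9% of detected coding genes. When TPM was rescaled over nuclear coding genes alone, Cd14 still stood at 516, 776 and 848 in replicates 1, 2 and 3, whereas Tlr1 (234, 207 and 181) and Tlr6 (13.8, 12.6 and 10.9) became highest in replicate 1. For Tlr6 that order rested on Tlr6-202, and its CPM was 7.61, 11.4 and 5.89, highest in replicate 2. The amount of starting RNA and the coding share of TPM also differed between the libraries, and their part in these differences was not tested.

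**Figure D4:**
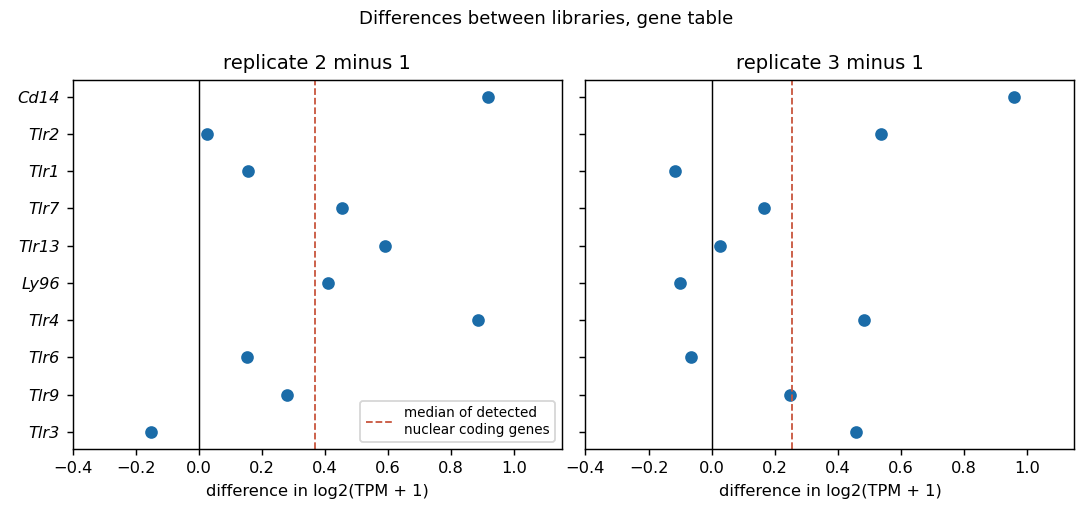
Difference in log2(TPM + 1) of each gene between replicates 2 and 1 (left) and between replicates 3 and 1 (right) in the gene table, with the median of detected nuclear coding genes as a dashed line at 0.37 and 0.26. Cd14 lies farthest to the right in both panels.

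The other Toll-like receptors were near or under a TPM of 1 in the gene table apart from Tlr8, the neighbour of Tlr7 on chromosome X and a further endosomal RNA sensor, at 6.12, 9.24 and 8.55 TPM in replicates 1, 2 and 3. Tlr5, the flagellin receptor, had 0.58, 0.63 and 1.09, and Tlr11 and Tlr12 were listed at 0.

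Of 12 genes that fold the receptors or carry them to their compartments, 11 had a TPM of at least 1 in every library, beside 35.8% of all coding genes. The highest were Slc15a3, a transporter of endolysosomes, at 100.1 TPM ± 10.8 (SD, n = 3), Nrros at 68.0 ± 16.2, Unc93b1, the chaperone that escorts endosomal receptors, at 52.6 ± 6.76 and Slc15a4, another endolysosomal transporter, at 36.4 ± 8.16. Cnpy3, which folds Toll-like receptors together with the Hsp90b1 product gp96, stood at 5.33 ± 1.10 and Cnpy4 at 0.297 ± 0.299. In the estimated-count tables Cnpy3 was much higher, at 41.9 ± 4.7, so its level depended on the table. Other listed genes were higher there too, among them Ctsl at 274.7, Irak2 at 301.8, Tirap at 5.875 and Ly86 at 7.28. Ticam2, at 20.7, hardly differed. Of the endosomal proteases, which trim the nucleic acid sensors, 4 of 5 were detected, with Ctsb at 258 ± 34.5, Ctsl at 76.2 ± 32.4 and, lowest of the 4, Ctss at 27.6 ± 1.67. Ctsk, at 0.27 ± 0.087, was not.

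Among 11 genes of ligand binding and accessory function 9 were detected. The scavenger receptor Msr1 was at 253 TPM ± 58.4, Cd180, a surface relative of TLR4, at 98.5 ± 26.7, Rftn1 at 40.2 ± 4.40 and the integrin subunit Itgb2 at 34.8 ± 9.86. Lbp, which delivers lipopolysaccharide to CD14, had 0.0233 ± 0.0208, and Tril was listed at 0. Ly86, whose product pairs with CD180 as MD-2 does with TLR4, had 1.65, 2.29 and 2.79 TPM, below Cd180 in every library, whereas by TPM Ly96 was above Tlr4.

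Of 12 proximal adaptors and kinases 11 were detected. Irak2, a kinase of the MyD88 complex, was at 151 TPM ± 6.87, Pik3ap1 at 120.1 ± 18.0, the TRIF-related adaptor Ticam2 at 20.97 ± 3.63 and the ubiquitin ligase Traf6 at 18.8 ± 3.81. The lowest were Tirap, which bridges MyD88 to TLR2 and TLR4, at 1.597 ± 0.517 and Sarm1 at 0.00333 ± 0.00577.

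**Figure D5:**
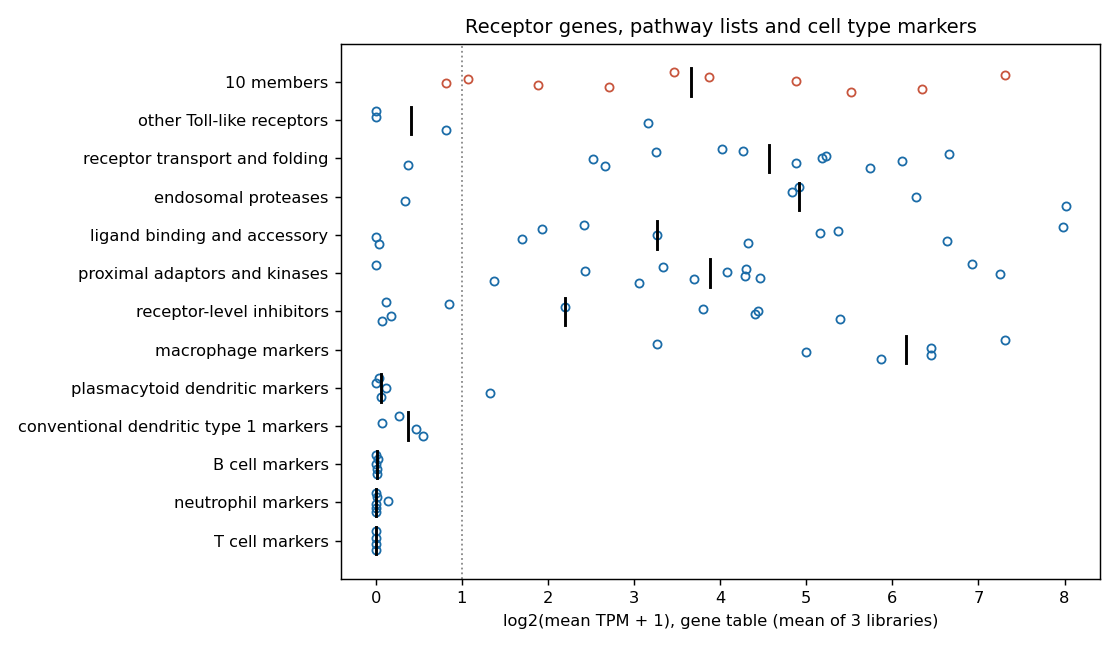
Mean gene-table level, as log2(mean TPM + 1) over 3 libraries, of each gene in the 10 receptor genes, the 6 pathway lists and the 6 marker lists. Vertical bars are list medians and the dotted line is a TPM of 1. Markers of B cells, neutrophils and T cells lie at or near 0, and the 10 receptor genes span from Tlr3 to Cd14.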

How the data were processed

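Total RNA-seq libraries of chromatin RNA were used as deposited. Per the labels the assembly was mm10, and the deposited text files name the annotation GENCODE M21. The sources used here do not name the aligner, programs, versions or strand setting. Per the file headers, the authors' gene and transcript tables give expected counts and TPM, and a further transcript table gives estimated counts and TPM. TPM is scaled over all rows. Gene-table rows naming no gene or 1 of 86 scaffold genes absent from the estimated-count tables (1.45%, 0.395% and 0.396% of expected counts in replicates 1, 2 and 3) stayed out of totals.

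Levels were compared within libraries as log2(TPM + 1) by exact two-sided sign-flip permutation. Quantifications and isoform classes were tested with limma 3.58.1 (intercept only, variance trend on mean level, pseudocount 0.5, mean TPM of at least 1) with Benjamini-Hochberg adjustment, and spread with edgeR 4.0.16 (TMM, filterByExpr) on rounded expected counts. Scripts were tested on simulated data. Members, lists and tests were chosen with earlier results of these data known. Named were all members, every other Toll-like receptor, the 4 highest and 2 lowest genes of a list (a selection is printed) and the 3 nearest genes of Cd14 and Tlr4. Hsp90b1 and Ly86 were named for their roles after their values were seen, and Cnpy3 was also named outside this rule. Alternatives were other pseudocounts, scalings, filters and tables, DESeq2 1.42.0 size factors and leaving out each library.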

Additional observations from a re-analysis of the deposited data

How the results depend on the processing

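The median difference of surface from endosomal receptors kept its sign under every alternative run, none of which changed the genes of a class. It was 2.40 with estimated counts, 1.96 with a pseudocount of 0.1, 1.90 with TPM rescaled over coding genes and 1.45 with class means. Over transcripts of at least 500 bases, chosen after seeing the data, it was 1.547 with expected and 2.47 with estimated counts. Cd14 minus Tlr4 was 2.73 with estimated counts, over all or the longer transcripts, and 2.82 as CPM. Ly96 minus Tlr4 turned to -2.08 as CPM, which is not divided by length. With estimated counts 5 of 9 neighbouring pairs kept their order in all libraries. Leaving out each library in turn, these differences ranged from 1.61 to 1.65, 4.43 to 4.67 and 0.61 to 0.90.

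Without centring, 8760 genes were higher and 50 lower in the estimated-count tables, and Tlr2 (0.022), Tlr13 (0.71), Tlr1 (0.58) and Tlr6 (0.17) changed sign. With no filter 6310 were higher and 5978 lower, and with a mean TPM of at least 5 it was 2359 and 2291. Tlr13, close to 0, changed sign in these fits (0.12 and 0.0086) and ranged from -0.163 to 0.0698 on leaving out each library. Tlr7 turned to -0.44 as a ratio of counts and -0.71 over transcripts of at least 500 bases. The centred median changed sign around 0 (-0.00013 with no filter, -0.00062 to 0.0065 on leaving out each library, -0.00015 over longer transcripts). For retained introns, the estimated-count table called 3198 genes higher and reversed Ly96 (-0.61) and Tlr13 (0.43), and the median was -0.019 with no filter. The cause of these changes was not tested, beyond the fewer or more genes that a filter leaves. No paired analysis was possible because there is 1 group of samples. Depth limits Tlr3, Tlr9 and Ly96 most, at 28 to 85 expected counts.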

Other observations

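Of 10 listed inhibitors that act near the receptors, 9 were matched by symbol and 5 had a TPM of at least 1 in every library of the gene table. Tollip, which binds the cytosolic domains of Toll-like receptors, was at 40.9 TPM ± 10.8 (SD, n = 3), Trem2 at 20.7 ± 6.81, the ubiquitin ligase gene Rnf216 at 20.3 ± 3.16 and Tyrobp, the signalling partner of TREM2, at 12.9 ± 1.36. The lowest were Dab2ip at 0.09 ± 0.026 and Sigirr, an inhibitory receptor of the same family, at 0.05 ± 0.0866.

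The coding genes whose log2(TPM + 1) over the 3 libraries lay nearest to Cd14, by Euclidean distance, were Dot1l (0.282), Helz2 (0.316) and Ankrd33b (0.321). All 3 were lowest in replicate 1, as Cd14 was. The nearest to Tlr4 were Rpl14 (0.0478), Ttc4 (0.0982) and B230219D22Rik (0.109), each highest in replicate 2 and lowest in replicate 1. With 3 libraries and 75.9% of detected coding genes lowest in replicate 1, such closeness is a description of level only.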
